A study of Mus musculus with 9 samples.

Results

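Transcripts of 8 genes of the activin and TGF-beta group were followed in 3 cell populations sorted from mouse back skin: the activin subunit genes Inhba and Inhbb, the ligand genes Tgfb1, Tgfb2 and Tgfb3, the latent TGF-beta binding protein genes Ltbp1 and Ltbp2, and the TGF-beta induced matrix gene Tgfbi. They were chosen by symbol, and all 8 were found among the 12393 genes named on the array, through 14 probe sets. The brightest probe set by mean log2(signal + 16) stood for a gene, and the others served as a check. The study held 9 arrays, 1 for each of dermal papilla, hair germ and bulge on postnatal days 43, 56 and 69, which the labels call early, middle and late telogen, the resting phase of the hair cycle. All mice were virgin CD1 females carrying Lef1RFP, a red reporter, and K14H2BGFP, a green histone reporter, so the promoters of Lef1 and of keratin 14 decided which cells could be sorted. Dermal papilla cells were RFP positive and GFP negative, and were negative for CD45, CD117 and integrin alpha 7, with CD34 added in the sample titles. Hair germ cells were GFP positive, RFP negative, CD34 negative and high in P-cadherin, and bulge cells were GFP positive, RFP negative, CD34 positive and low in P-cadherin. How many mice went into an array is not given in the sources used here.

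Activins are dimers of inhibin beta subunits, and Inhba encodes the beta A subunit and Inhbb the beta B subunit. They and the TGF-beta ligands bind pairs of type II and type I receptors that phosphorylate SMAD2 and SMAD3. TGF-beta leaves the cell in a latent complex with its own propeptide, and LTBP-1 ties that complex to fibrillin-rich matrix until integrins or proteases release the ligand, whereas LTBP-2 shares the family's structure but is not known to hold latent TGF-beta. The dermal papilla is the mesenchymal cluster under the resting follicle that signals to the hair germ and the bulge above it, and TGF-beta signalling to hair germ stem cells is known to oppose BMP signals when regrowth begins.

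Promoter sequences are shown for 3 genes on which the results turn: Inhba and Tgfb2, whose signals were highest in dermal papilla, and Tgfbi, whose signals were lowest there. RefSeq (GRCm38.p6) gave a promoter for 7 of the 8 genes, with 2 entries for Ltbp1. Each line holds the 250 bases before the annotated start, 5′ to 3′ on the gene's strand, and capitals mark matches to a short motif.
Inhba, chr13:16011601-16011850, strand +: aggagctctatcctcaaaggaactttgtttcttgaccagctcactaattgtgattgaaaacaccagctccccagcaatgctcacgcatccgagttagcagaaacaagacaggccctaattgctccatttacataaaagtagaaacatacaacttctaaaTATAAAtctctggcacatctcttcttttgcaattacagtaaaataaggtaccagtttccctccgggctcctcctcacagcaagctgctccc
Tgfb2, chr1:186705990-186706239, strand -: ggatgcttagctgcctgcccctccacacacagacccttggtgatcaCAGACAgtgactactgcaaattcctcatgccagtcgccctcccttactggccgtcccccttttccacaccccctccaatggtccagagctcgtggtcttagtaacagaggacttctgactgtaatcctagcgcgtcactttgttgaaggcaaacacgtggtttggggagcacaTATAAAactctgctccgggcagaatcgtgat
Tgfbi, chr13:56609336-56609585, strand +: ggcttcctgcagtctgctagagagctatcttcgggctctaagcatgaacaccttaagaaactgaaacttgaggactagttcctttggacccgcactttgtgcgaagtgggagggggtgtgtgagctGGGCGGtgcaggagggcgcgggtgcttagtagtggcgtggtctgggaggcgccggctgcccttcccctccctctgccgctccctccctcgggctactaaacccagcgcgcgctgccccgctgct
The motifs searched on both strands were the TATA box TATAAA, the GC box GGGCGG, the AP-1 site TGANTCA, the core TGACGT of the cyclic AMP response element, the TCF/LEF site ATCAAAG, the palindromic SMAD site GTCTAGAC and the CAGA box CAGACA. Inhba held a TATA box match that began 91 bases before the start, and Tgfb2 held one that began 31 bases before it, a match present in 12.4% of the 32851 promoters. Tgfb2 also held a CAGA box match, present in 17.1%, and Tgfbi held a GC box match, present in 32.7%. A match is only a run of letters, and the arrays do not bear on any factor.

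Dermal papilla and bulge arrays followed their labels for most marker genes, and hair germ arrays did so less clearly. Some of these markers were part of the sort and are no independent check of the labels. The product of Cd34, a bulge marker, was a gate. The promoters of Lef1, in the dermal papilla list, and of Krt14, in the keratinocyte list, drove the reporters. Summed signals of 12 dermal papilla markers ran from 15302 to 21975 in dermal papilla, against 171 to 595 in hair germ and 207 to 248 in bulge. For 9 basal keratinocyte markers the sums ran from 582 to 1504 in dermal papilla, against 37824 to 62143 in hair germ and 30705 to 32673 in bulge. All 8 bulge markers lay above the array median in all 3 bulge arrays. In hair germ 4 did so in every array, and in dermal papilla 2. Their sums ran from 490 to 1277 in dermal papilla, against 8907 to 10683 in hair germ and 16896 to 20649 in bulge. Krt15 was about as bright in hair germ (10019, 7810 and 8566) as in bulge (8234, 9577 and 7975). Cd34 lay above the median in no hair germ array. Tcf7l1 was 307, 373 and 509 in dermal papilla, against 366, 243 and 414 in bulge. The 4 hair germ markers barely separated hair germ from bulge, with sums of 842, 1763 and 927 on days 43, 56 and 69 in hair germ, against 789, 885 and 752 in bulge. Tnfrsf19 was higher in hair germ (603, 760 and 589, against 30.4, 10.8 and 13.0 in bulge), Lgr5 was lower there (175, 790 and 259, against 715, 825 and 680 in bulge), and Cdh3, the P-cadherin gene of the gate, lay above the median in no array of any population. Of the other cell types checked, melanocyte markers summed to 394 to 709 in dermal papilla, 2215 to 5000 in hair germ and 2269 to 2991 in bulge. The gene Mitf made up most of the sum in bulge (2445, 2864 and 2115) and in dermal papilla (302, 591 and 455). Dct, a pigment enzyme gene, reached 1369, 2519 and 1060 in hair germ, against 68.8, 45.8 and 70.5 in bulge. Smooth muscle and pericyte markers summed to 658 to 813 in dermal papilla, 181 to 273 in hair germ and 51.5 to 90.4 in bulge. Leukocyte markers summed to at most 124 in dermal papilla, 722 in hair germ and 522 in bulge, and 6 endothelial markers were below the median in all arrays. The GAPDH 3'/5' signal ratio, a measure of RNA quality, was 6.62, 4.13 and 3.77 in dermal papilla on days 43, 56 and 69, 8.34, 2.97 and 7.90 in hair germ, and 3.96 to 5.09 in bulge. In bulk samples such as these, fewer cells of a type and less RNA per cell cannot be told apart.

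The design asked which signals the dermal papilla sends to the epithelium, and the members did not share one source. Inhba, Inhbb, Tgfb2 and Ltbp1 were higher in dermal papilla than in both epithelial populations, Tgfbi was lower there, and Ltbp2 was highest in bulge. Inhbb was not stable in this: its call against hair germ was lost in 3 of the 9 fits that left out 1 array. Its dimmer probe set lay only 0.18 log2 units above bulge. Against hair germ, 4 of the 7 members tested were higher and 1 was lower in dermal papilla, where 39.3% of all 7772 genes tested passed, 15.4% higher and 23.8% lower (limma, adjusted p below 0.05). Against bulge, 4 were higher and 2 lower, where 35% of all genes passed, 16% higher and 19% lower. Between hair germ and bulge, 2 were lower in hair germ, where 19.8% of all genes passed and 7.55% were lower. The signals of the populations did not overlap for 6 of the 7 members between dermal papilla and hair germ, for 7 between dermal papilla and bulge and for 2 between hair germ and bulge, beside 45.6%, 52.5% and 39% of all genes. The comparisons share arrays, and Inhba passed the filter on dim probe sets only through its dermal papilla arrays, so these counts describe the members and support nothing beyond that. The median difference of all genes was -0.15 for dermal papilla against hair germ, -0.05 against bulge and 0.10 for hair germ against bulge. Rescaling moved the split of calls: 1200 genes were higher and 1852 lower in dermal papilla than in hair germ as deposited, against 1518 and 1504 after quantile normalization, with the median at 0.01. For hair germ against bulge the split was 952 and 587 as deposited, 694 and 792 after quantile normalization, and 613 and 939 after median centring, with medians of -0.05 and -0.11.

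**Figure D1:**
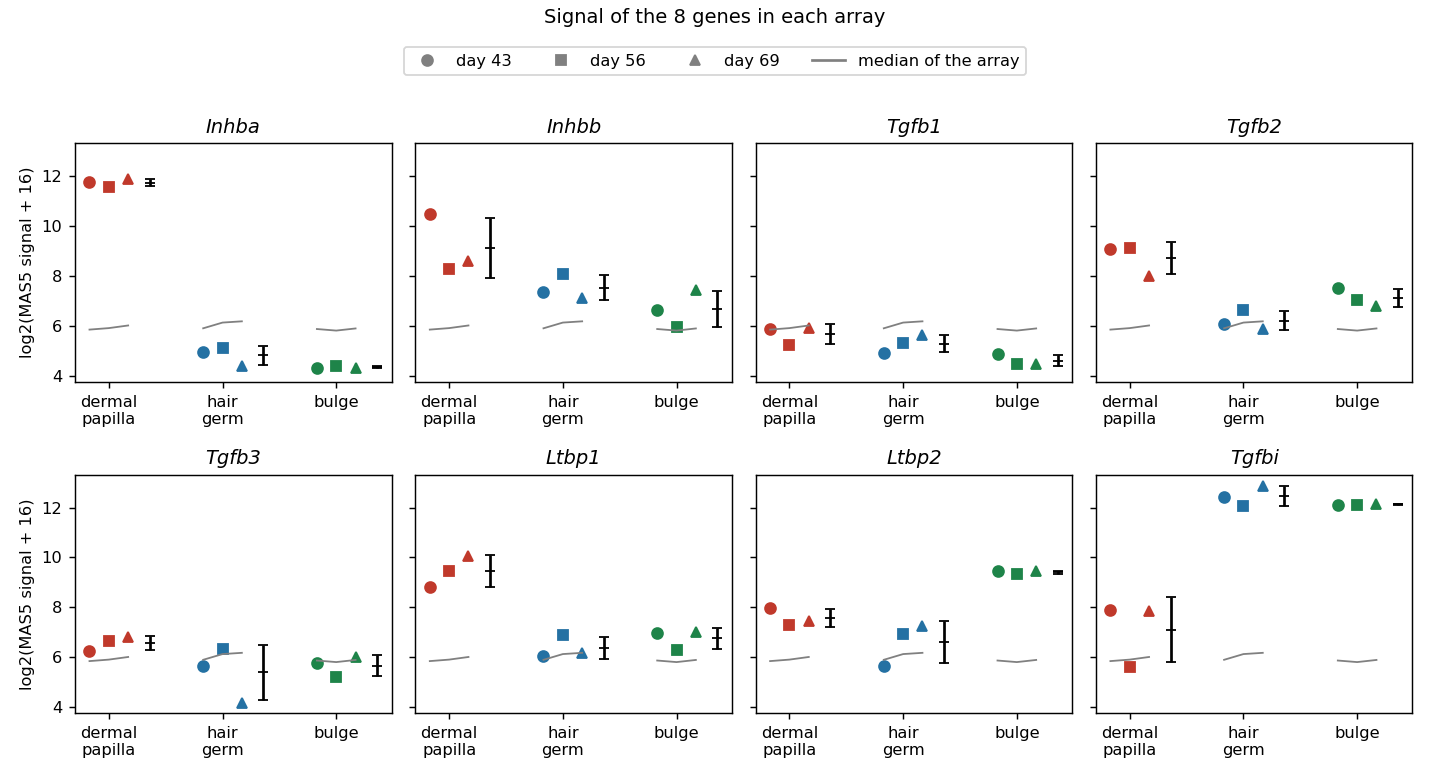
Signal of the 8 genes in each array, as log2(MAS5 signal + 16) on the vertical axis. Circles, squares and triangles are days 43, 56 and 69, the black bar is the mean with its SD over the 3 arrays of a population, and the grey line is the median of each array. Inhba stands at 11.74 in dermal papilla and lies below the array median in all 6 epithelial arrays, while Tgfbi shows the opposite order.

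Inhba, whose product forms activin A, had signals of 3493, 3027 and 3745 in dermal papilla on days 43, 56 and 69, against 14.9, 18.2 and 4.97 in hair germ and 4.02, 5.26 and 3.94 in bulge. All 3 dermal papilla arrays lay far above the 6 epithelial arrays, none of which reached its own array median. On the log2 scale the level was 11.74 ± 0.16 (SD, n = 3) in dermal papilla, 4.81 ± 0.37 in hair germ and 4.35 ± 0.05 in bulge. The difference was 6.93 ± 0.25 (SE) against hair germ, 122-fold (limma, adjusted p = 2.5e-08), and 7.39 ± 0.25 against bulge, 168-fold (limma, adjusted p = 1.87e-08). These folds rest on the pseudocount, because the epithelial signals are so low. With a pseudocount of 4 they were 219-fold and 407-fold, and with 64 they were 45.4-fold and 50.8-fold. Hair germ and bulge did not differ beyond their spread, at 0.46 with a 95% interval of -0.09 to 1.01 (limma, adjusted p = 0.223). The profiles nearest to that of Inhba over the 9 arrays, by root mean square difference after centring each gene, were those of the collagen VI gene Col6a3 (0.44 log2 units) and the mesenchymal transcription factor gene Prrx1 (0.47).

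Inhbb, whose product forms activin B, had signals of 1423, 291 and 369 in dermal papilla, 148, 255 and 124 in hair germ, and 82.1, 46.8 and 156 in bulge. The dermal papilla arrays lay above all arrays of the other populations, but the day 43 array stood well above the rest of its group. Levels were 9.11 ± 1.20 (SD, n = 3), 7.52 ± 0.50 and 6.67 ± 0.73 log2 units in that order. The difference from bulge was 2.44 ± 0.52 (SE; limma, adjusted p = 0.00345). The difference from hair germ was 1.59 ± 0.52 (limma, adjusted p = 0.0314), and it was no longer called without the day 43 dermal papilla array (0.85, adjusted p = 0.161), without the day 43 hair germ array (1.18, adjusted p = 0.145) or without the day 69 hair germ array (1.33, adjusted p = 0.114). Those are the 3 arrays with a GAPDH ratio above 6, and with all of them left out the value was -0.10 (adjusted p = 0.888), on 1 remaining hair germ array that is assumed to vary like the other groups. Hair germ and bulge overlapped (0.85, 95% interval -0.29 to 1.99; limma, adjusted p = 0.282), although without those 3 arrays the value was 1.83 and called (adjusted p = 0.0423). The dimmer of the 2 Inhbb probe sets gave a dermal papilla mean 1.18 log2 units above hair germ but 0.18 above bulge, so the probe sets disagree on the difference from bulge. The nearest profiles were those of the N-cadherin gene Cdh2 (0.52) and of Jmjd1c (0.53).

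Among the TGF-beta ligands, Tgfb2 differed most between populations. Its signals were 531, 535 and 237 in dermal papilla, 51.9, 82.9 and 43.1 in hair germ, and 166, 115 and 96.1 in bulge. The 3 populations did not overlap, with dermal papilla highest, bulge between and hair germ lowest. Levels were 8.73 ± 0.65 (SD, n = 3) in dermal papilla, 6.20 ± 0.38 in hair germ and 7.12 ± 0.36 in bulge. Dermal papilla was higher than hair germ by 2.53 ± 0.26 (SE), 5.77-fold (limma, adjusted p = 2.08e-05), and higher than bulge by 1.61 ± 0.26, 3.05-fold (limma, adjusted p = 0.000599). All 3 Tgfb2 probe sets had the higher mean in dermal papilla, by 1.86 to 2.70 over hair germ and by 1.61 to 1.90 over bulge. Hair germ lay below bulge, with a difference of -0.92 ± 0.26 (limma, adjusted p = 0.0326). This smaller difference was not stable: it was lost without the day 56 dermal papilla array (adjusted p = 0.0535), the day 43 hair germ array (adjusted p = 0.13), the day 43 bulge array (adjusted p = 0.171) or the day 69 bulge array (adjusted p = 0.15), and also without age as a term (adjusted p = 0.0727). The mean over the 3 probe sets gave -0.59 (adjusted p = 0.172). Nearest to Tgfb2 were the profiles of the matrix gene Spon2 (0.39) and of As3mt (0.40).

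Tgfb3 was dim in every population. Its signals were 61.2, 86.1 and 95.2 in dermal papilla, 34.5, 65.8 and 2.22 in hair germ, and 38.2, 20.6 and 49.1 in bulge. Dermal papilla did not overlap with bulge but did with hair germ, where the 3 arrays were far apart. Levels were 6.58 ± 0.27 (SD, n = 3) in dermal papilla, 5.40 ± 1.11 in hair germ and 5.66 ± 0.42 in bulge. Neither difference passed, at 1.18 ± 0.48 (SE) against hair germ (limma, adjusted p = 0.0734) and 0.92 ± 0.48 against bulge (limma, adjusted p = 0.167). Their 95% intervals were 0.12 to 2.24 and -0.14 to 1.98. Against hair germ the call changed with scaling, at 1.28 (adjusted p = 0.0464) after quantile normalization and 1.33 (adjusted p = 0.0414) after median centring, and it was also made without the day 56 hair germ array (1.75, adjusted p = 0.0165). It was smaller without the day 69 hair germ array (0.43, adjusted p = 0.36) and without the 3 arrays with a GAPDH ratio above 6 (0.14, adjusted p = 0.841). Against bulge it was made without the day 69 hair germ array (adjusted p = 0.0272), when the fit held only those 2 populations (adjusted p = 0.0179) and without the 3 arrays (1.13, adjusted p = 0.0263), and leaving out other arrays gave values down to 0.43. Its nearest profiles were those of E2f6 (0.22) and Rab4a (0.29).

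Tgfb1, with a single probe set, was above the array median in 1 of 9 arrays and so was not among the genes tested. Its signals were 42.9, 21.3 and 43.7 in dermal papilla, 14.4, 23.3 and 33.0 in hair germ, and 12.9, 5.98 and 6.28 in bulge. Bulge lay below the other populations without overlap, and dermal papilla and hair germ overlapped. When all 12393 genes were fitted without the filter, dermal papilla was above bulge by 1.07 ± 0.29 (SE; limma, adjusted p = 0.0211) and above hair germ by 0.39 ± 0.29 (adjusted p = 0.371). All Tgfb1 signals were low, so both values rest on differences near the background of the array.

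**Figure D2:**
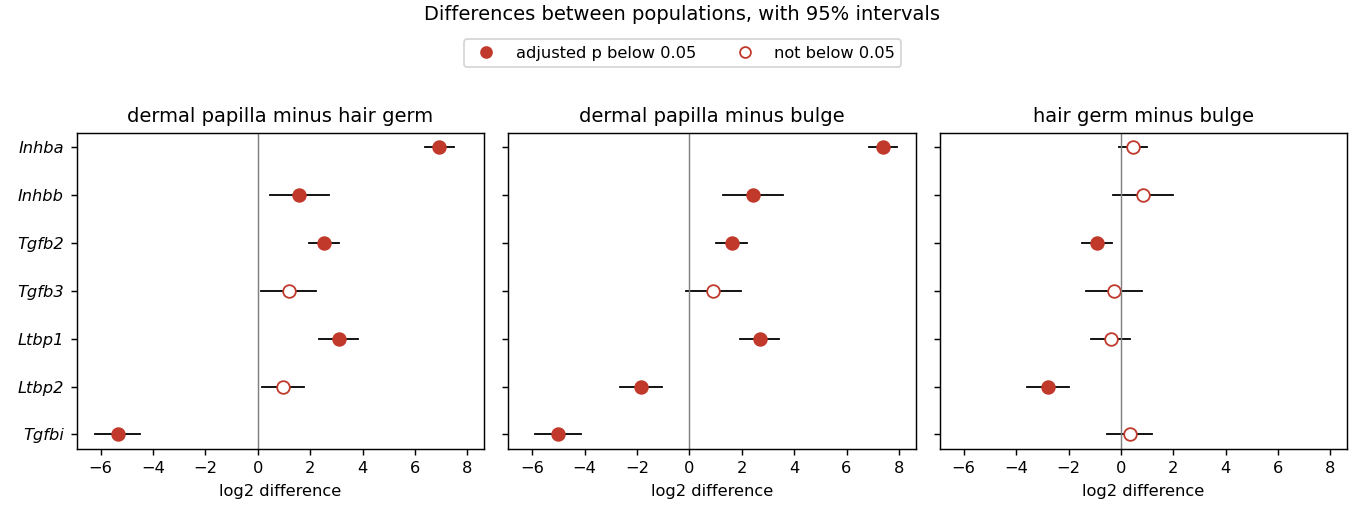
Difference between populations on the log2(signal + 16) scale for the 7 genes tested, with 95% intervals from the fit. Filled points passed at adjusted p below 0.05 over all 7772 genes and open points did not. Inhba lies at 6.93 and 7.39 and Tgfbi at -5.35 and -5.01 in the dermal papilla comparisons, and Ltbp2 lies at -2.80 in hair germ against bulge.

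The latent TGF-beta binding protein genes went different ways. Ltbp1, whose product stores latent TGF-beta in the matrix, had signals of 434, 689 and 1065 in dermal papilla, 49.9, 102 and 56.7 in hair germ, and 110, 61.8 and 113 in bulge. All dermal papilla arrays were above all epithelial arrays, which overlapped with each other. Levels were 9.45 ± 0.63 (SD, n = 3), 6.37 ± 0.45 and 6.76 ± 0.41 log2 units in that order. Dermal papilla was higher than hair germ by 3.08 ± 0.34 (SE), 8.48-fold (limma, adjusted p = 3.1e-05), and higher than bulge by 2.70 ± 0.34, 6.48-fold (limma, adjusted p = 8.63e-05). Hair germ and bulge differed by -0.39 (95% interval -1.13 to 0.36; limma, adjusted p = 0.464). Nearest were the semaphorin receptor gene Plxnd1 (0.29) and Gpm6a (0.33).

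Ltbp2 had signals of 235, 143 and 160 in dermal papilla, 34.4, 108 and 137 in hair germ, and 686, 635 and 683 in bulge. The bulge arrays were close together and above all others, dermal papilla was between, and hair germ was lowest without overlap. Levels were 7.58 ± 0.35 (SD, n = 3) in dermal papilla, 6.62 ± 0.85 in hair germ and 9.42 ± 0.06 in bulge. Hair germ lay 6.95-fold below bulge, a log2 difference of -2.80 ± 0.36 (SE; limma, adjusted p = 0.000449), and dermal papilla was lower than bulge by -1.84 ± 0.36, 3.57-fold (limma, adjusted p = 0.00214). The step between dermal papilla and hair germ, 0.96 ± 0.36 with an interval of 0.16 to 1.76, did not pass (limma, adjusted p = 0.056). It was called after quantile normalization (1.08, adjusted p = 0.0317), after median centring (1.11, adjusted p = 0.0208), without the day 56 or the day 69 hair germ array (1.21, adjusted p = 0.0466, and 1.30, adjusted p = 0.0222) and without age as a term (adjusted p = 0.0462). Leaving out 1 array also gave values down to 0.37 (without the day 43 hair germ array), with adjusted p up to 0.27, and without the 3 arrays with a GAPDH ratio above 6 the value was 0.37 (adjusted p = 0.425). The nearest profile was that of the imprinted zinc finger gene Peg3 (0.35), followed by Rflnb (0.41).

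Tgfbi, which encodes a secreted matrix protein that binds integrins and was named for its induction by TGF-beta, had signals of 222, 32.3 and 213 in dermal papilla, 5445, 4301 and 7488 in hair germ, and 4403, 4394 and 4547 in bulge. Epithelial arrays of either kind were far above the dermal papilla arrays and overlapped with each other. Levels were 7.11 ± 1.31 (SD, n = 3), 12.45 ± 0.40 and 12.12 ± 0.03 log2 units in that order. Dermal papilla was lower than hair germ by a log2 of -5.35 ± 0.39 (SE), 40.7-fold (limma, adjusted p = 1.6e-06), and lower than bulge by -5.01 ± 0.39, 32.3-fold (limma, adjusted p = 2.27e-06). All 4 Tgfbi probe sets had the lower mean in dermal papilla, by -5.90 to -5.07 against hair germ and by -5.98 to -5.01 against bulge. Of the 9 keratinocyte markers, Krt14, Cdh1 and Itgb4 were above the median in no dermal papilla array and 3 others were above it in all of them, with summed signals of 1504, 590 and 582 on days 43, 56 and 69, and their part in the remaining Tgfbi signal was not tested. Hair germ and bulge differed by 0.33 (95% interval -0.53 to 1.19; limma, adjusted p = 0.6). The nearest profiles were those of Il17re (0.49) and of the tight junction gene Cldn1 (0.52).

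**Figure D3:**
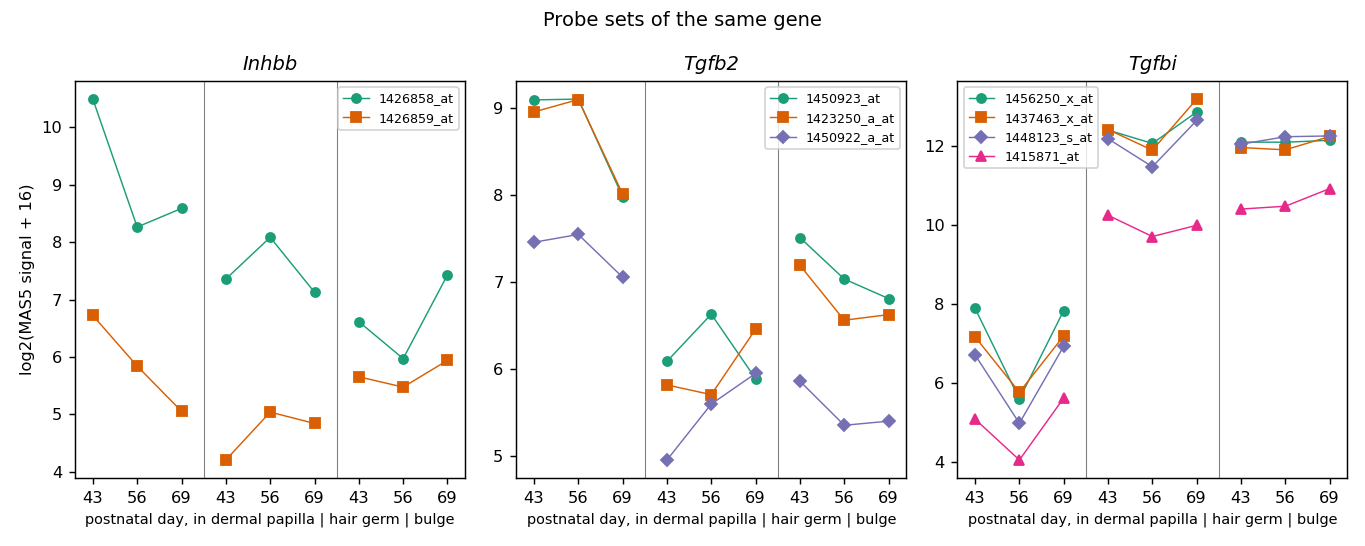
Every probe set of the 3 genes that have more than 1, as log2(MAS5 signal + 16) by postnatal day within dermal papilla, hair germ and bulge. Each point is 1 array, and lines join the arrays of a population. The 3 Tgfb2 and 4 Tgfbi probe sets keep dermal papilla on the same side of the epithelium, while the dimmer Inhbb probe set separates dermal papilla from bulge by only 0.18 on average.

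The study also asked what changes as telogen runs toward regrowth. No member and no other gene passed for any pair of days across populations (limma, 0 of 7772, so 0% called). Without adjustment 397 genes had p below 0.05 between days 56 and 43, 564 between days 69 and 43, and 551 between days 69 and 56. Members at an unadjusted p below 0.05 were Tgfb2, lower on day 69 in all 3 populations by a mean log2 of -0.67 ± 0.26 (SE) against day 43 (adjusted p = 0.679) and -0.70 ± 0.26 against day 56 (adjusted p = 0.685), and Tgfbi, at -0.88 ± 0.39 on day 56 against day 43 (adjusted p = 0.846) and 1.03 ± 0.39 on day 69 against day 56 (adjusted p = 0.685). In hair germ the other Tgfb2 probe sets had the opposite sign on day 69 against day 43, at 0.64 and 1.00. Against day 56 they had the opposite sign in hair germ (0.75 and 0.35) and in bulge (0.06 and 0.05).

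Within a population a day is 1 array, so its changes have no test and are given as values. In dermal papilla 7 of 21 day differences of the tested members reached 2-fold with the higher array above its median, in hair germ 3 of 21 and in bulge 1 of 21. Among all genes the shares in dermal papilla were 7.15% between days 43 and 56, 8.16% between days 43 and 69, and 3.91% between days 56 and 69. In the same order they were 8.23%, 12.4% and 12% in hair germ, and 0.566%, 2.59% and 3.38% in bulge. Ltbp1 was 2.40-fold higher in dermal papilla on day 69 than on day 43, with day 56 between, where 5.83% of all genes were at least 2-fold higher. Tgfb2 was 2.17-fold lower there on day 69 than on day 43, where 2.33% of all genes were at least 2-fold lower, and its other probe sets were 1.93-fold and 1.32-fold lower. Against day 56 the day 69 value was 2.18-fold lower, where 1.33% of all genes were at least 2-fold lower. Inhba stayed within 1.24-fold between any 2 dermal papilla arrays. Other features of the arrays differed too. All dermal papilla markers but Crabp1 (9705 and 7657) and Prrx1 (2308 and 2073) were higher on day 69 than on day 43. Among those higher were Corin (355 and 1162) and Vcan (1789 and 3880). The GAPDH ratio was 6.62 on day 43 and 3.77 on day 69. The part of these array differences in the Ltbp1 and Tgfb2 values was not tested.

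Inhbb was 4.68-fold lower in dermal papilla on day 56 than on day 43, where 2.57% of all genes were at least 2-fold lower, and 3.74-fold lower on day 69. The dimmer probe set was 1.84-fold and 3.18-fold lower. Tgfbi in dermal papilla was 4.93-fold lower on day 56 than on day 43 and 4.74-fold higher on day 69 than on day 56, where 2.59% of all genes were at least 2-fold higher, with the same signs in the other probe sets. The day 43 dermal papilla array had the highest GAPDH 3'/5' ratio of its group, 6.62, and the highest summed keratinocyte signal, and their part in these differences was not tested.

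In hair germ, Ltbp2 was 2.45-fold higher on day 56 and 3.03-fold higher on day 69 than on day 43, where 5.38% and 7.67% of all genes were at least 2-fold higher. The GAPDH ratio was 2.97 on day 56 and 7.90 on day 69, against 8.34 on day 43, and on days 43, 56 and 69 leukocyte markers in hair germ summed to 279, 446 and 722, dermal fibroblast markers to 240, 983 and 426, and dermal papilla markers to 171, 595 and 306. Their part in the Ltbp2 values was not tested. Tgfb3 in hair germ was 4.49-fold lower on day 69 than on day 56, where 6.19% of all genes were at least 2-fold lower. The day 69 signal, 2.22, lay near the lowest value the pseudocount allows, and day 56 was 1.62-fold above day 43. The day 56 array had the highest fibroblast, dermal papilla and melanocyte sums of the 3 hair germ arrays. Melanocyte markers summed to 5000 there, against 2648 on day 43 and 2215 on day 69. The GAPDH ratio was lowest on day 56, at 2.97, and 7.90 on day 69. The part of these array differences in the Tgfb3 value was not tested. In bulge, Inhbb was 2.75-fold higher on day 69 than on day 56, where 1.99% of all genes were at least 2-fold higher, and the dimmer probe set was 1.38-fold higher. Dermal fibroblast markers in bulge summed to 715, 245 and 1331 on days 43, 56 and 69, with Dcn, the decorin gene, at 137, 42.2 and 532, and their part in the Inhbb values was not tested. Ltbp2 and Tgfbi, both bright in bulge, stayed within 1.08-fold and 1.03-fold over its 3 days, although the other Tgfbi probe sets differed by up to 1.43-fold.

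**Figure D4:**
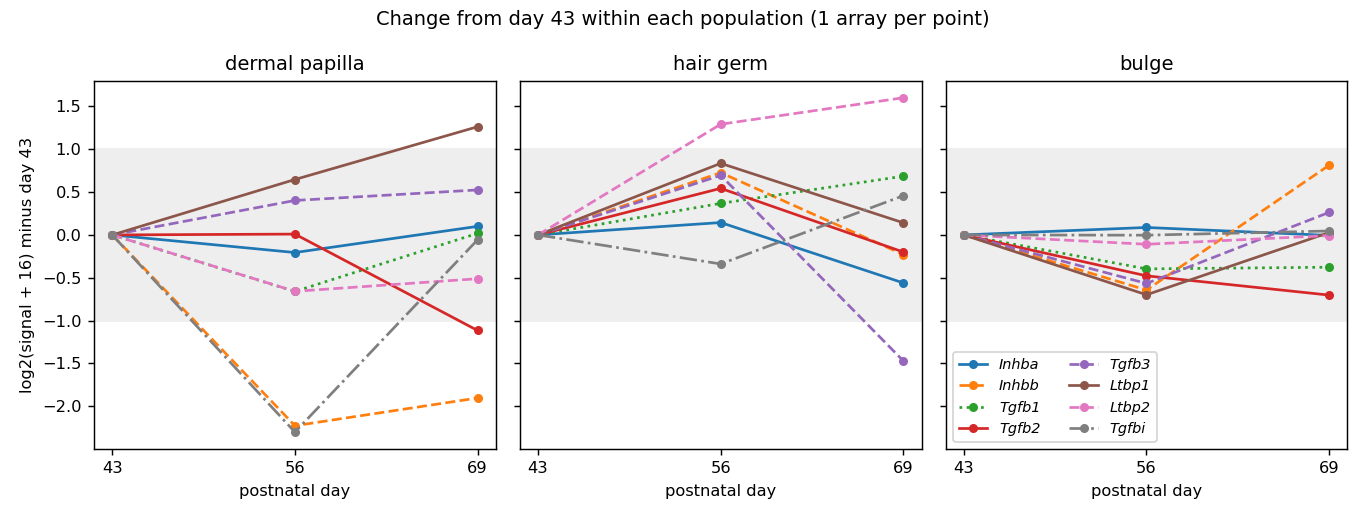
Change of each gene from day 43 within dermal papilla, hair germ and bulge, on the log2(signal + 16) scale by postnatal day, with 1 array per point and therefore no error. The grey band spans a 2-fold change either way. Ltbp1 ends at 1.26 and Tgfb2 at -1.12 in dermal papilla, while Ltbp2 ends at 1.60 in hair germ.

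The rest of the pathway was read from 4 lists. Of 26 genes for latency, matrix and activation, 19 were tested, and 10 were higher and 2 lower in dermal papilla than in hair germ, with a median of 1.43 beside -0.15 for all genes, of which 15.4% were called higher and 23.8% lower. Against bulge 8 were higher and 2 lower, with a median of 0.69 beside -0.05 for all genes, of which 16% were higher and 19% lower. Requiring signals above the median in all 9 arrays, which removes genes dim in any population, left 8 genes of the list. Of these 3 were higher and 0 lower against hair germ (median 0.40), and 2 higher and 1 lower against bulge. Over all 5303 genes left by that filter, 529 were higher and 1016 lower against hair germ, and 582 and 773 against bulge. Genes named by the size of their difference included the small proteoglycan genes Bgn (4.61 against hair germ and 4.90 against bulge) and Aspn (5.32 against hair germ), and the elastic fibre genes Emilin1 (4.27 and 4.26) and Fbln5 (3.72 and 3.68), EMILIN-1 being known to restrain processing of the TGF-beta precursor. Epithelial levels of Emilin1 (4.09 in hair germ and 4.10 in bulge) and Fbln5 (4.67 and 4.70) lay near the lowest value the pseudocount allows, so these sizes rest on it: against hair germ, Emilin1 was at 5.97 with a pseudocount of 4 and 2.54 with 64, and Fbln5 at 4.68 and 2.41. Vasn, which encodes a TGF-beta binding membrane protein, was also higher than in bulge, by 4.25. Thbs1, whose product can activate latent TGF-beta, was higher in hair germ than in bulge by 2.49 ± 0.26 (SE; limma, adjusted p = 0.000116). Dermal fibroblast markers summed to 15182 to 20161 in dermal papilla, 240 to 983 in hair germ and 245 to 1331 in bulge. Dcn and Lum stand in both lists, and the part of these markers in the matrix list was not tested.

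Only 5 of 13 activin modulators and other subunits were tested. Fst, which encodes the activin antagonist follistatin, was highest in bulge, at 6.08 ± 1.29 (SD, n = 3) log2 units in dermal papilla, 7.61 ± 0.12 in hair germ and 9.62 ± 0.31 in bulge. Against bulge the log2 difference was -3.54 ± 0.38 (SE) for dermal papilla (limma, adjusted p = 2.64e-05) and -2.01 ± 0.38 for hair germ (limma, adjusted p = 0.00412), of which the hair germ call was lost without the 3 arrays with a GAPDH ratio above 6 (adjusted p = 0.175). The call for dermal papilla against hair germ, -1.53 (limma, adjusted p = 0.00814), was lost without the day 56 dermal papilla array (adjusted p = 0.0583). The pseudoreceptor gene Bambi was higher in dermal papilla than in hair germ by 3.94 and than in bulge by 2.61, and Fstl1, of a follistatin-like secreted protein, by 4.22 and 2.39. The inhibin alpha gene Inha was higher in dermal papilla than in bulge by 0.83 (limma, adjusted p = 0.0251), and this was lost in 5 of the 9 fits that left out 1 array.

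Of 17 receptor and SMAD genes, 13 were tested. In dermal papilla 4 were higher and 3 lower than in hair germ, with a median of 0.15, and 4 were higher and 2 lower than in bulge, with a median of -0.11. Beside them stand medians of -0.15 and -0.05 for all genes, with 15.4% higher and 23.8% lower against hair germ, and 16% and 19% against bulge. The type II TGF-beta receptor gene Tgfbr2 was higher by 1.97 against hair germ and 2.37 against bulge and the co-receptor gene Eng by 2.34 and 1.76, while the activin type I receptor gene Acvr1b was lower by a log2 of -2.11 and -2.14 and the type II gene Acvr2a by -2.40 against bulge.

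Of 23 response genes, 19 were tested, and in dermal papilla 3 were higher and 10 lower than in hair germ, with a median of -1.08 beside -0.15 for all genes, and 4 were higher and 11 lower than in bulge, with a median of -1.14 beside -0.05. The shares of all genes called were the 15.4% higher and 23.8% lower, and 16% and 19%, given above. The higher genes included the collagen gene Col1a2 (4.72 and 3.98) and, against bulge, the SMAD feedback gene Pmepa1 (3.45). Col1a2 and Col1a1 of this list also stand in the dermal fibroblast list, whose part in these values was not tested. Lower genes included the cell cycle inhibitor gene Cdkn2b (-2.39 against hair germ), the matrix gene Fn1 (-2.87 against hair germ) and, against bulge, Ccn2 (-3.43) and Id2 (-4.06), which is known as a BMP target as well. Cdkn2b in dermal papilla (4.90) and Pmepa1 in bulge (4.85) lay near the lowest value the pseudocount allows, so their sizes rest on it. With a pseudocount of 4 they were at -3.17 and 4.21, and with 64 at -1.39 and 2.23. Genes of this list also answer to other signals, and the counts do not measure TGF-beta activity.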

How the data were processed

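RNA from cells sorted by flow cytometry went through 2 rounds of amplification and was hybridised to oligonucleotide arrays, 1 for each population at each day, as the labels record. The authors deposited MAS5 signals made with GCOS, linear intensity values, per the submitters' processing notes. The versions and scaling target are not given in the sources used here. Array medians ran from 40.1 to 56.5. Arrays give no count depth, so their number limits the precision.

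Signals were used as log2(signal + 16), unscaled beyond what the authors did. The 64 control probe sets of 22690 were set aside. The annotation named 1 gene for 20380 probe sets, several for 691 and none for 1555, and 20351 of the single-gene probe sets matched the current gene table. A gene was kept if its brightest probe set exceeded its array's median in at least 3 of 9 arrays, which left 7772 genes. limma 3.58.1 in R 4.3.3 was fitted to all 9 arrays with population and age as additive terms (4 residual degrees of freedom) and moderated by eBayes with its trend option. All tests were two-sided, and p values were adjusted by Benjamini-Hochberg over all genes and called below 0.05. Arrays of different ages stood in for replicates, so p values also carry age effects that differ between populations. The labels do not say that arrays came from separate groups of mice, so the spread may be partly technical. Within a population, 2-fold changes were counted where the higher array was above its median.

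All 8 members were named in every comparison, with the 2 nearest profiles of each tested member and up to 4 called genes of a pathway list in each comparison. The members and lists were chosen with earlier results of these data known. The fit was checked on simulated data. Alternatives varied the pseudocount, scaling, filter, probe set summary, trend, age term, populations fitted and arrays left out. Leaving out the 3 arrays with a GAPDH ratio above 6 was chosen after seeing the data.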

Additional observations from a re-analysis of the deposited data

Results flagged for a closer look

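Ltbp2 moved in opposite directions in hair germ and dermal papilla: both later arrays lay on one side of day 43 in each population, by at least 0.5 log2 units. On day 56 the difference from day 43 was 1.29 in hair germ and -0.66 in dermal papilla. On day 69 it was 1.60 in hair germ and -0.51 in dermal papilla. With 1 array per population and day, the difference between the populations was not tested. The rule was applied to every tested member, and the share of all genes that meet it was not counted. The dermal papilla moves were below 2-fold, at 1.58-fold and 1.43-fold. In hair germ the day 43 signal, 34.4, lay below the array median of 43.8. The GAPDH ratio on day 43 was 6.62 in dermal papilla and 8.34 in hair germ, where day 69 stood at 7.90. Its part in these moves was not tested.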

How the results depend on the processing

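Among refits of the member differences given above, 438 left direction and call as they were, 12 added a call, 12 ended one and 7 turned the sign, of which 1 concerned a called value. That tally leaves out 17 day differences across populations whose values are not printed. Their 278 refits held 40 sign changes and 0 calls. Without the 3 arrays with a GAPDH ratio above 6, Inhbb for dermal papilla against hair germ became -0.10, and uncalled hair germ against bulge values turned to 0.98 for Tgfb3 and 0.57 for Ltbp1. In the same comparison Inhbb became -0.072 as a mean over probe sets, Tgfbi -0.12 after quantile normalization, and Tgfb3 ranged from -0.83 to 0.49 when 1 array was left out. For Tgfb2 in hair germ against bulge the call also ended with a pseudocount of 64 (-0.62, adjusted p = 0.0658) and without the filter (adjusted p = 0.052). Without the 3 arrays with a GAPDH ratio above 6, which left a single hair germ array, this Tgfb2 value was -0.63 and not called. The cause of these changes was not tested.

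Over all genes, requiring signals above the median in all 9 arrays left 5303 genes and 1545 calls for dermal papilla against hair germ, 1355 against bulge and 888 for hair germ against bulge. Without the 3 arrays named above the counts were 1778 for dermal papilla against hair germ and 545 for hair germ against bulge, with fewer arrays in the fit. Leaving out 1 array gave 2401 to 2871, 2021 to 3038 and 782 to 1607 calls in those 3 comparisons. The lowest counts for hair germ against bulge, 782, 975 and 862, came without the bulge arrays of days 43, 56 and 69, and pairs of days gave 0 calls in each refit run for them. Without age as a replicate block the counts were 3007, 2674 and 1477. Same-day arrays correlated from -0.0968 to 0.183 in their deviations from the population means, which does not settle a pairing, and the block decided 2 member calls given above. In the pathway lists, 46 gene differences, not all of them printed above, were refitted 893 times. Of these refits 834 kept the call, 59 lost it, most of them in hair germ against bulge, and 0 turned the sign. The 46 were chosen as the largest called differences of a list, so the tally favours kept calls and signs. Without the 3 arrays, which left a single hair germ array, the matrix list median for dermal papilla against hair germ was 1.07. The median of all genes in that refit was -0.16.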
